A study of Mus musculus with 32 samples.

Results

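The genes described here are 10 brakes on mitogen-activated protein (MAP) kinase signalling, namely the dual-specificity phosphatases Dusp1, Dusp4, Dusp5, Dusp6, Dusp8, Dusp10, Dusp14 and Dusp16 and the Sprouty genes Spry2 and Spry4. Their probe sets were taken by platform symbol, and the 10 names were chosen with earlier results of these data known. All 10 were found, on 11 probe sets, among 21506 genes measured with 1 symbol each. Gene expression was measured on 32 Affymetrix arrays of 3T3-L1 adipocytes, a mouse fibroblast line that takes on the features of fat cells after hormonal differentiation and is grown as a single cell line. Cells received auranofin (AF) at 1 µM, which inhibits thioredoxin reductase, BCNU (1,3-bis-(2-chloroethyl)-1-nitrosourea) at 100 µM, which inhibits glutathione reductase, or both drugs together, for 2, 4, 8 or 24 h. Control cells were harvested at 4, 8 and 24 h and untreated cells at 0 h, which gave 16 groups of 2 arrays each. All groups were the same differentiated line. The labels name no 2 h control, so the 2 h arrays were compared with the untreated 0 h arrays, although the methods of the study describe controls at every time. Separate cultures for the replicates are not stated in the labels, and the p-values therefore measure only the spread between these arrays, which may be technical.

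Growth factors and stress switch on MAP kinase cascades that end in ERK, JNK and p38, and dual-specificity phosphatases switch these kinases off by removing phosphate from both a threonine and a tyrosine in their activation loop. Several of these phosphatase genes are themselves induced by MAP kinase signalling, which makes them negative feedback regulators, and they differ in where they act and in which kinase they prefer. Sprouty proteins act further upstream, between receptor tyrosine kinases and the kinases that activate ERK. Dual-specificity phosphatases use a catalytic cysteine that oxidants can inactivate. In fat cells, MAP kinases lie downstream of the insulin and growth factor receptors and of stress.

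Values are log2 levels made by the authors with robust multi-array average (RMA). A gene was called differentially-expressed at a limma adjusted p below 0.05 together with an absolute log2 change above 0.5. Replicate arrays correlated across genes with r between 0.993 and 0.995. Each log2 change is given with its SE, with a median SE of 0.173 over all genes in comparisons with control, and 2 arrays a group limited the precision. As a guide to background, the lower quartile of all levels reached at most 2.33 on any array. Of 10 adipocyte markers, Adipoq lay between 11.3 and 11.8 and Fabp4 between 13.0 and 13.3 over the 32 arrays, whereas Lep, the leptin gene, lay between 3.48 and 5.15. Of 5 leukocyte and macrophage markers, Ptprc and Adgre1 reached at most 2.55 and 2.46, close to the background guide, and Csf1r 3.03. Itgam and Cd68 reached 4.13 and 7.58 on their highest arrays. In a culture measured in bulk, fewer cells of a type and less RNA per cell cannot be told apart.

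The promoters of Dusp1, Dusp5 and Dusp8 are shown because these members hold the motifs rarest in promoters among those searched, the cyclic AMP response element (CRE), bound by CREB and ATF factors, and the CArG box, bound by serum response factor. RefSeq promoters of build GRCm38.p6, each running from 250 bases before to 50 bases after the gene's start, were matched for 8 of the 10 members, and Dusp4 and Spry4 were not matched. Capitals mark any match on either strand to the motifs searched, and the antioxidant response element (TGANNNNGC) is the other match shown.
Dusp1, chr17:26508423-26508722, minus strand: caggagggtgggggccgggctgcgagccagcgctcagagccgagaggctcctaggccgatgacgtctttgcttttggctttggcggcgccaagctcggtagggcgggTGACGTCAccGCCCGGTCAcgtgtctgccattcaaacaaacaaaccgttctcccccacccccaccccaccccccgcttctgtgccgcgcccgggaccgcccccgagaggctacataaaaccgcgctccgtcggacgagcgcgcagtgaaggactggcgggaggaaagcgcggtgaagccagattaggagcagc
Dusp5, chr19:53528895-53529194, plus strand: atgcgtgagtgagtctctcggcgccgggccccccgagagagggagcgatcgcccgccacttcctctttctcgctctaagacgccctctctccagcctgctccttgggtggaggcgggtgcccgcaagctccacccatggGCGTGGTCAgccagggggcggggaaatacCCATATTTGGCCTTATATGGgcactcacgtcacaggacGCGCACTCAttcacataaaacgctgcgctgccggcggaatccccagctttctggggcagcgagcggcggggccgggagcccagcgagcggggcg
Dusp8, chr7:142095235-142095534, minus strand: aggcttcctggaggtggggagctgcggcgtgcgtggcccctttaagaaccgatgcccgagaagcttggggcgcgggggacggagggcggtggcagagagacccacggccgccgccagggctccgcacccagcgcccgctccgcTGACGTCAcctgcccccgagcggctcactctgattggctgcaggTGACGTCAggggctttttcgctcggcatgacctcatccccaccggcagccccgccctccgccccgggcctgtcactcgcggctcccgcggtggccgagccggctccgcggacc
The CRE (TGACGTCA) occurred in 1.79% of 32851 RefSeq promoters of this length and in 2 of the 8 member promoters, once in Dusp1 at -143 to -136 from the start and at 2 places in Dusp8, at -107 to -100 and -63 to -56. The CArG box occurred in 1.63% of all promoters and only in Dusp5 among the 8, where 2 boxes lay side by side at -82 to -73 and -72 to -63. The antioxidant response element occurred in 41.3% of all promoters and in 5 of the 8 (Dusp1, Dusp5, Dusp6, Dusp10 and Dusp14). The ETS core (CCGGAA) was in 14.9% of all promoters and in Dusp14 and Spry2. AP-1 (TGANTCA) was found in 7.81% of all promoters and the TATA box (TATAAA) in 13.6%, and neither in a member window. No 2 of these motif matches overlapped within a member window. A match is a description of letters and does not show a bound site.

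Co-treatment raised most of the phosphatases, and none of the 10 genes was called lower. After 8 h, 7 members were called higher, Dusp1, Dusp4, Dusp5, Dusp6, Dusp8, Dusp10 and Dusp16, where 5.72% of all genes were called higher. After 24 h, 6 members were called higher, the same genes without Dusp10, against 4.88% of all genes. At 4 h, 4 were called higher, Dusp1, Dusp10, Dusp16 and Spry4, against 2.53%. None was called at 2 h, where 1.49% of all genes were called either way. At that time 6 of the 10 had an unadjusted limma p under 0.05, as had 2975 of the 21506 genes. Dusp14 and Spry2 were called in none of the 12 comparisons of a treatment with its control. The median log2 change of the 10 members was 0.32, 0.52, 0.83 and 0.68 at 2, 4, 8 and 24 h of co-treatment, beside 0.00, 0.03, 0.05 and 0.01 over all genes.

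**Figure D1:**
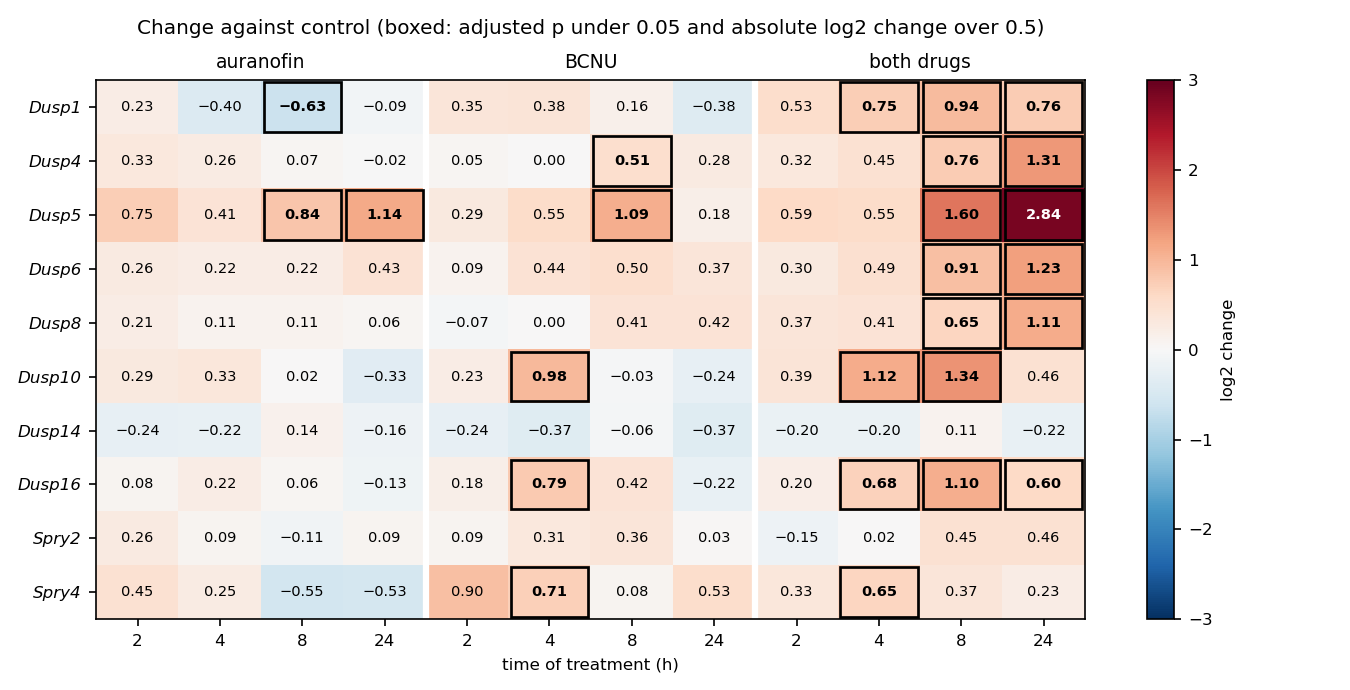
Log2 change against control for the 10 genes (rows) at each time (columns, h) under auranofin, BCNU and both drugs, with the colour scale in log2 units and a box around each called value. Boxes lie mostly in the co-treated columns at 4, 8 and 24 h, where the highest value is Dusp5 at 24 h, 2.84.

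Single drugs moved fewer of the members. Auranofin gave no call at 2 h or 4 h, when 15 and 61 of all genes were called (0.0697% and 0.284%). At these times 5 and 2 of the members had an unadjusted limma p under 0.05, beside 1155 and 1489 of the 21506 genes. At 8 h of auranofin 1 member was higher (Dusp5) and 1 lower (Dusp1), against 0.916% and 0.516% of all genes. At 24 h of auranofin Dusp5 alone was called higher, against 0.921%. BCNU gave no call at 2 h, against 0.0465% of all genes called either way, and 3 members higher at 4 h (Dusp10, Dusp16 and Spry4), against 0.391%. BCNU at 8 h gave 2 members higher (Dusp4 and Dusp5), against 0.879%, and at 24 h none, against 0.191% of all genes called either way. At these BCNU times without a call, 2 members at 2 h and 6 at 24 h had an unadjusted limma p under 0.05. The counts over the 21506 genes were 1245 and 1672.

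Dusp5, a nuclear phosphatase selective for ERK, moved most. Its log2 level was 5.0 and 4.58 in untreated cells, 5.06 and 4.83 in 4 h controls, 4.95 and 4.75 in 8 h controls and 4.91 and 4.95 in 24 h controls. Co-treated arrays read 5.28 and 5.48 at 2 h, 5.20 and 5.80 at 4 h, 6.41 and 6.48 at 8 h, and 7.61 and 7.94 at 24 h. Every co-treated array lay above both arrays of its control, with the widest gap at 24 h. At 24 h the co-treated arrays lay above both controls for 26.7% of all genes. The log2 change was 1.60 ± 0.20 at 8 h (3.03-fold, limma adjusted p = 7.19e-06) and 2.84 ± 0.20 at 24 h (7.16-fold, adjusted p = 1.81e-09). It was 0.59 ± 0.20 at 2 h (adjusted p = 0.135) and 0.55 ± 0.20 at 4 h (adjusted p = 0.091), and its most spread pair of arrays was the co-treated pair at 4 h. Without replicate 1 of that pair the 4 h log2 change was 0.85 (adjusted p = 0.0251).

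Dusp5 was also called higher under each drug alone, under auranofin at 8 h and 24 h and under BCNU at 8 h. Neither drug alone gave a call at 2 h or 4 h. Auranofin read 5.61 and 5.46 at 2 h and 5.63 and 5.10 at 4 h. BCNU read 5.03 and 5.12 at 2 h and 5.65 and 5.35 at 4 h. Auranofin arrays read 5.69 and 5.69 at 8 h and 6.02 and 6.12 at 24 h, log2 changes of 0.84 ± 0.20 (adjusted p = 0.0261) and 1.14 ± 0.20 (2.20-fold, adjusted p = 0.00267). BCNU arrays read 6.10 and 5.77 at 8 h and 5.05 and 5.18 at 24 h, so that BCNU was 1.09 ± 0.20 above control at 8 h (2.13-fold, adjusted p = 0.00281) and 0.18 ± 0.20 at 24 h (adjusted p = 0.907). The 8 h auranofin call was lost when any 1 of its 4 arrays was left out (adjusted p between 0.0759 and 0.242), and the 8 h BCNU call was lost without BCNU replicate 1 (adjusted p = 0.0618). A fit restricted to the 4 arrays compared called none of these 3 single-drug changes (adjusted p between 0.0956 and 0.199).

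**Figure D2:**
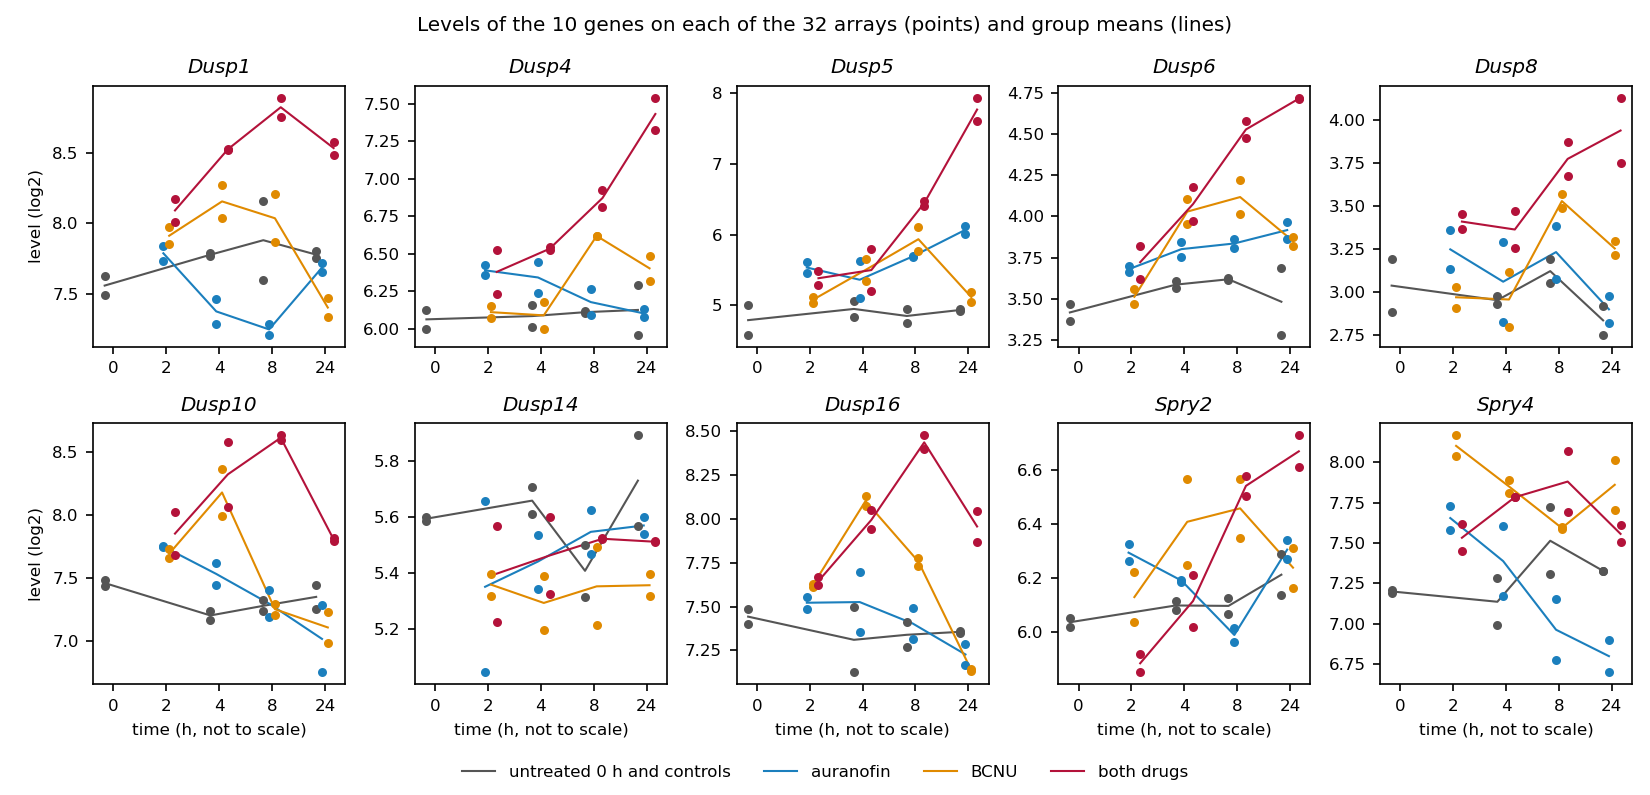
Log2 level of each of the 10 genes on each array (points) by time in hours, coloured by treatment, with lines through the means of 2 arrays. The co-treated points of Dusp5 at 24 h, 7.61 and 7.94, lie furthest from their controls, 4.91 and 4.95, while the treatments of Dusp14 intermix.

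Dusp1 (MKP-1), the immediate early nuclear phosphatase that acts on p38, JNK and ERK, was called higher from 4 h of co-treatment. Under auranofin alone its means lay below control at 4 h and 8 h. Only the 8 h fall was called, and that call depended on single arrays. Its control log2 levels were 7.76 and 7.79 at 4 h, 7.60 and 8.16 at 8 h, and 7.80 and 7.75 at 24 h, so the 8 h controls were the most spread pair of all 16 groups for this gene. Under both drugs it read 8.53 and 8.52 at 4 h, 8.76 and 8.89 at 8 h, and 8.49 and 8.58 at 24 h. All 6 of these arrays lay above every control array of the series. The log2 changes were 0.75 ± 0.14 (adjusted p = 0.00184), 0.94 ± 0.14 (1.92-fold, adjusted p = 9.18e-05) and 0.76 ± 0.14 (adjusted p = 0.000989). In fits of the 4 arrays alone the 4 h and 8 h values were not called (adjusted p = 0.0908 and 0.084). At 2 h it read 8.17 and 8.01 against 7.49 and 7.63 in untreated cells, a log2 change of 0.53 ± 0.14 with an adjusted p of 0.0609.

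Under auranofin alone Dusp1 read 7.84 and 7.73 at 2 h, against 7.49 and 7.63 in untreated cells, which was not called. It then read 7.28 and 7.46 at 4 h, a fall that was not called (limma adjusted p of 0.493 or more), and 7.21 and 7.29 at 8 h. The 8 h log2 change was -0.63 ± 0.14 (adjusted p = 0.023), the only call of a member in the lower direction against control. It was lost without control replicate 2, when the log2 change became -0.35 (adjusted p = 0.414), without auranofin replicate 1 (adjusted p = 0.145) or replicate 2 (adjusted p = 0.127), and in a fit of the 4 arrays alone (adjusted p = 0.356). By 24 h auranofin arrays read 7.72 and 7.65, and the log2 change was -0.09 ± 0.14 (adjusted p = 0.917). BCNU gave 8.27 and 8.04 at 4 h and 7.47 and 7.33 at 24 h, log2 changes of 0.38 and -0.38 that were not called (adjusted p = 0.298 and 0.454).

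Dusp4 (MKP-2), another inducible nuclear phosphatase, which acts on ERK and JNK, was called higher at 8 h and 24 h of co-treatment. Its 8 control arrays read between 5.96 and 6.29 on the log2 scale. Co-treated arrays read 6.52 and 6.24 at 2 h, 6.53 and 6.54 at 4 h, 6.82 and 6.93 at 8 h and 7.54 and 7.32 at 24 h. From 4 h on they lay above all 8 controls. The log2 change was 0.45 ± 0.12 at 4 h (adjusted p = 0.0259, under the size for a call), 0.76 ± 0.12 at 8 h (adjusted p = 0.000179) and 1.31 ± 0.12 at 24 h (2.47-fold, adjusted p = 2.24e-07). BCNU alone reached 6.62 and 6.62 at 8 h, a log2 change of 0.51 ± 0.12 (adjusted p = 0.0243). This call sat at the size threshold and was lost without any 1 of its 4 arrays (adjusted p between 0.0969 and 0.131) and in a fit of those 4 arrays alone (adjusted p = 0.243).

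Dusp6 (MKP-3), the cytoplasmic phosphatase that binds and inactivates ERK, was measured by a pair of probe sets that did not behave alike. The dimmer lay between 1.41 and 1.91 on every array, under the background guide of 2.33, and its correlation with the brighter over the 32 arrays, which share the same samples, was 0.234. The gene value, the median of the pair, therefore understates the change seen on the brighter one. On the brighter probe set co-treated arrays read 6.48 and 6.34 at 4 h, 7.40 and 7.15 at 8 h and 7.78 and 7.65 at 24 h. Control arrays on that probe set read 5.38 and 5.45, 5.81 and 5.58, and 5.83 and 5.03 at the same times. None of these co-treated arrays overlapped its controls, and at 24 h co-treated arrays lay above both controls for 26.7% of all genes. Its log2 changes were 1.00 ± 0.20 (adjusted p = 0.00306), 1.58 ± 0.20 (adjusted p = 1.41e-05) and 2.29 ± 0.20 (adjusted p = 9.76e-08), whereas the gene value changed by 0.49 ± 0.12 (adjusted p = 0.0102), 0.91 ± 0.12 (adjusted p = 1.26e-05) and 1.23 ± 0.12 (2.35-fold, adjusted p = 2.27e-07). BCNU alone was called on the brighter probe set at 4 h (0.95 ± 0.20, adjusted p = 0.0271) and 8 h (0.79 ± 0.20, adjusted p = 0.0339). The gene value under BCNU changed by 0.50 ± 0.12 at 8 h (adjusted p = 0.0191), just under the size for a call, and was called with arrays centred on their medians (0.54) or after cyclic loess (0.55). Auranofin at 24 h gave a gene log2 change of 0.43 ± 0.12 (adjusted p = 0.0713), which was called without control replicate 1 (0.64, adjusted p = 0.0151).

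**Figure D3:**
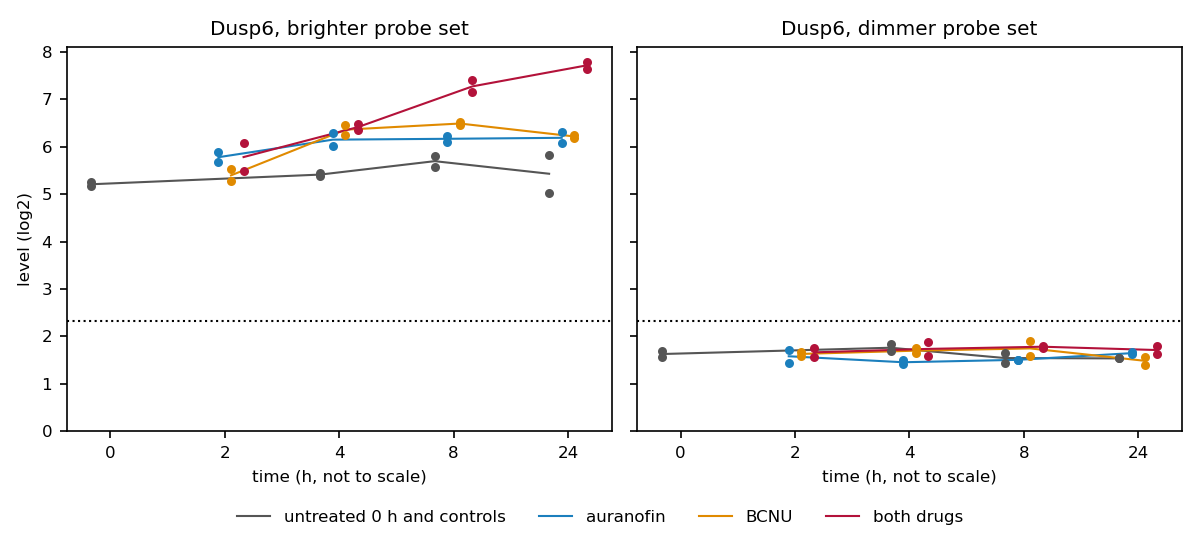
Log2 level of the brighter and the dimmer Dusp6 probe set on each array (points) by time in hours and treatment, with lines through means of 2 arrays and the background guide of 2.33 dotted. The dimmer probe set stays at or under 1.91 on all arrays, while the brighter rises to 7.78 and 7.65 at 24 h of co-treatment.

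The phosphatases that prefer JNK and p38 to ERK, Dusp8, Dusp10 and Dusp16, were each called higher at 8 h of co-treatment. Dusp10 (MKP-5) had control log2 levels of 7.24 and 7.16 at 4 h, 7.32 and 7.23 at 8 h, and 7.26 and 7.44 at 24 h. Under both drugs it read 8.58 and 8.07 at 4 h, 8.60 and 8.64 at 8 h, and 7.82 and 7.80 at 24 h. The log2 change was 1.12 ± 0.17 at 4 h (2.18-fold, adjusted p = 0.000226), 1.34 ± 0.17 at 8 h (2.53-fold, adjusted p = 1.35e-05) and 0.46 ± 0.17 at 24 h (adjusted p = 0.0903). At 24 h the co-treated arrays still lay above both controls, as they did for 26.7% of all genes. BCNU alone reached 8.36 and 8.00 at 4 h, a log2 change of 0.98 ± 0.17 (1.97-fold, adjusted p = 0.00581), and 7.29 and 7.21 at 8 h, within the range of the 8 control arrays. The 4 h BCNU value missed the threshold when control replicate 2 (adjusted p = 0.083) or BCNU replicate 1 (adjusted p = 0.118) was left out and in a fit of the 4 arrays alone (adjusted p = 0.303), in which the 4 h co-treatment value was not called either (adjusted p = 0.1).

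Dusp16 (MKP-7), a JNK phosphatase that shuttles between cytoplasm and nucleus, had its highest group mean at 8 h of co-treatment. Its control log2 levels were 7.50 and 7.12 at 4 h, 7.27 and 7.41 at 8 h, and 7.35 and 7.36 at 24 h. Co-treated arrays read 7.94 and 8.05 at 4 h, 8.48 and 8.40 at 8 h, and 8.05 and 7.87 at 24 h, all above every control array. The log2 changes were 0.68 ± 0.12 (adjusted p = 0.00072), 1.10 ± 0.12 (2.14-fold, adjusted p = 1.71e-06) and 0.60 ± 0.12 (adjusted p = 0.00136). BCNU alone read 8.07 and 8.13 at 4 h, a log2 change of 0.79 ± 0.12 (1.73-fold, adjusted p = 0.00121), then 7.73 and 7.78 at 8 h (0.42 ± 0.12, adjusted p = 0.0582) and 7.14 and 7.13 at 24 h. Without control replicate 2 the 4 h BCNU value was 0.61 (adjusted p = 0.0542) and the 4 h co-treatment value was 0.50, just under the size for a call (adjusted p = 0.0335). In fits of the 4 arrays alone neither 4 h value was called (adjusted p = 0.376 and 0.157), nor was the 24 h co-treatment value (adjusted p = 0.0766).

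Dusp8, a phosphatase of JNK and p38, lay nearer to the background guide, with control log2 levels of 2.92 and 2.75 at 24 h and 3.05 and 3.19 at 8 h. Co-treated arrays read 3.67 and 3.87 at 8 h and 3.75 and 4.13 at 24 h, above all 8 control arrays. The log2 change was 0.65 ± 0.17 at 8 h (adjusted p = 0.00878) and 1.11 ± 0.17 at 24 h (2.15-fold, adjusted p = 8.48e-05). Leaving out control replicate 1 (adjusted p = 0.0815) or co-treated replicate 2 (adjusted p = 0.084) ended the 8 h call, as did a fit of the 4 arrays alone (adjusted p = 0.0724).

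Dusp14 (MKP-6), a small phosphatase without the kinase-binding domain of the others, stayed between 5.04 and 5.89 on the log2 scale over all 32 arrays. Its log2 changes under both drugs were -0.20, -0.20, 0.11 and -0.22 (each ± 0.17) at 2, 4, 8 and 24 h, and the smallest adjusted p of its 12 comparisons with control was 0.432, for BCNU at 4 h (-0.37 ± 0.17). At 24 h its co-treated arrays read 5.51 and 5.51 and the controls 5.57 and 5.89. No difference was detectable with 2 arrays a group, which does not show that the levels were equal.

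Of the Sprouty genes, which restrain receptor tyrosine kinase signalling to ERK, Spry2 was higher at 8 h and 24 h of co-treatment by less than the size for a call. Its log2 level was 6.13 and 6.07 in 8 h controls, 6.58 and 6.51 in co-treated cells at 8 h, 6.29 and 6.14 in 24 h controls and 6.61 and 6.73 in co-treated cells at 24 h. The log2 changes were 0.45 ± 0.11 (adjusted p = 0.00707) and 0.46 ± 0.11 (adjusted p = 0.00661). Its lowest group mean was at 2 h of co-treatment, with arrays at 5.92 and 5.85 against 6.02 and 6.05 in untreated cells, which was not called. The 24 h value was 0.54 without control replicate 1 (adjusted p = 0.0142) and 0.52 without co-treated replicate 1 (adjusted p = 0.0206), and was called in both cases.

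Spry4, another inhibitor of receptor signalling, had its highest group mean under BCNU at 2 h. BCNU arrays read 8.17 and 8.04 at 2 h against 7.19 and 7.21 in untreated cells, a log2 change of 0.90 ± 0.17 (1.87-fold) with an adjusted p of 0.0682. Against the 4 h controls instead, the 2 h change was 0.96 (adjusted p = 0.0295). Co-treated arrays at 2 h read 7.62 and 7.45, and their difference from BCNU was not called. At 4 h BCNU arrays read 7.89 and 7.81 and co-treated arrays 7.78 and 7.78, where the controls read 6.99 and 7.28. These were log2 changes of 0.71 ± 0.17 for BCNU (adjusted p = 0.0483) and 0.65 ± 0.17 for both drugs (adjusted p = 0.0188). The BCNU call was lost without any 1 of its 4 arrays (adjusted p between 0.103 and 0.303), with the replicate number as a block (adjusted p = 0.0509), with all probe sets kept (adjusted p = 0.0539) and in a fit of the 4 arrays alone (adjusted p = 0.37). The co-treatment value missed it when control replicate 1 (adjusted p = 0.183) or co-treated replicate 1 (adjusted p = 0.0964) or 2 (adjusted p = 0.0748) was left out and in a fit of the 4 arrays alone (adjusted p = 0.146). Under auranofin it read 7.15 and 6.77 at 8 h against 7.31 and 7.72, and 6.70 and 6.90 at 24 h against 7.33 and 7.33, log2 changes of -0.55 and -0.53 (each ± 0.17, adjusted p = 0.112 and 0.163). The 8 h value was called with genes above the median level only (adjusted p = 0.0445) and with an intensity trend (adjusted p = 0.0403).

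Whether the drugs acted together by more than the sum of their separate log2 changes was tested as the interaction at each time. No member passed at 2 h or 4 h, where 0.0558% and 1.57% of all genes were called either way. At each time 2 members had an unadjusted limma p under 0.05, beside 1835 and 2761 of the 21506 genes. At 8 h, 4 members exceeded the sum, against 3.49% of all genes called higher, and at 24 h, 5 did, against 1.75%. Dusp1 exceeded it by 1.42 ± 0.20 at 8 h (adjusted p = 0.000196) and 1.22 ± 0.20 at 24 h (adjusted p = 0.000719), Dusp10 by 1.35 ± 0.24 (adjusted p = 0.00155) and 1.04 ± 0.24 (adjusted p = 0.0166), and Dusp16 by 0.62 ± 0.17 (adjusted p = 0.0276) and 0.95 ± 0.17 (adjusted p = 0.00134). Spry4 exceeded it at 8 h only, by 0.84 ± 0.24 (adjusted p = 0.0354). No treatment was called against control for Spry4 at that time, and its log2 change under auranofin was -0.55. Its 8 h group means were 7.88 under both drugs, 7.59 under BCNU, 6.96 under auranofin and 7.51 in controls. Dusp4 and Dusp5 exceeded it at 24 h, by 1.05 ± 0.17 (adjusted p = 0.000708) and 1.52 ± 0.28 (adjusted p = 0.00176). Decreases under a single drug enter these sums. The co-treatment changes of Dusp1 were 0.94 at 8 h and 0.76 at 24 h, smaller than its interactions, and auranofin gave -0.63 at 8 h. At 24 h the means of Dusp1, Dusp10 and Dusp16 lay below control under each single drug, and co-treated Dusp10 was not called against control. Dusp6 and Dusp8 did not pass at 24 h (0.43 ± 0.16, adjusted p = 0.196, and 0.62 ± 0.23, adjusted p = 0.184). Dusp6 was called there without control replicate 2 (0.63, adjusted p = 0.0328).

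Several of the interactions depended on single arrays. At 8 h the calls of Dusp16 and Spry4 were lost without any of 5 arrays each, among them control replicate 2, auranofin replicate 2 and both BCNU replicates (adjusted p up to 0.13 and 0.179), and Dusp16 also without co-treated replicate 1 (0.0775) and Spry4 without co-treated replicate 2 (0.157). Both were lost with arrays centred on their medians (adjusted p = 0.081 and 0.0632). At 24 h Dusp10 was lost without control replicate 2 (0.082), auranofin replicate 1 (0.109), BCNU replicate 2 (0.0922) or co-treated replicate 1 (0.06). The interactions of Dusp1 at both times, Dusp10 at 8 h, and Dusp4, Dusp5 and Dusp16 at 24 h were called with any 1 array left out. A fit of the 8 arrays concerned alone called 1 member at 8 h, Dusp10, and 3 at 24 h, Dusp1, Dusp5 and Dusp16.

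**Figure D4:**
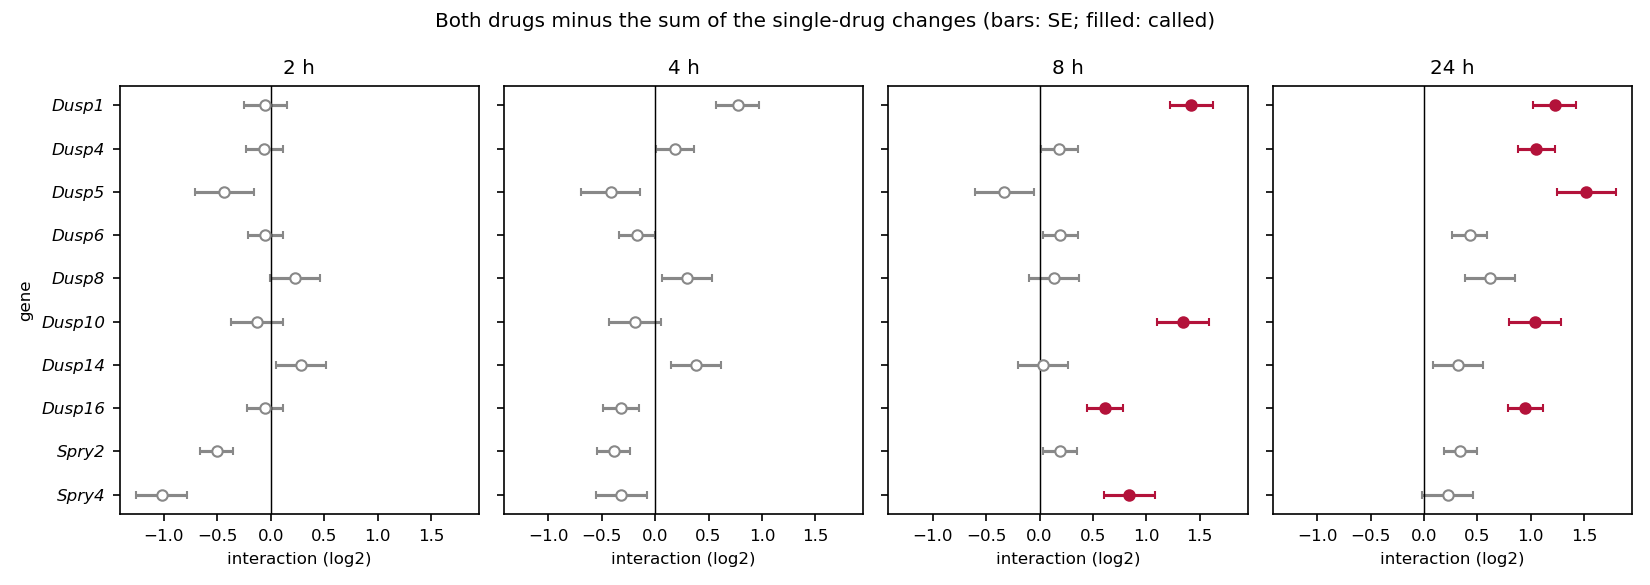
Interaction of the drugs (log2 change under co-treatment less the summed log2 changes of the single drugs) for each gene at 2, 4, 8 and 24 h, with SE bars and filled points for called values. Filled points are found at 8 h and 24 h alone, led by Dusp1 at 8 h, 1.42, and Dusp5 at 24 h, 1.52.

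In direct comparisons of the treatments, the members called were higher under both drugs than under either drug alone. Both drugs against auranofin called no member at 2 h, against 0.851% of all genes either way, 2 at 4 h (Dusp1 and Dusp10), against 2.11% higher, 9 at 8 h, all but Dusp14, against 5.50%, and 8 at 24 h, all but Dusp14 and Spry2, against 3.72%. Both drugs against BCNU called no member at 2 h or 4 h, against 0.837% and 3.35% of all genes either way, 3 at 8 h (Dusp1, Dusp10 and Dusp16), against 5.04% higher, and 7 at 24 h (Dusp1, Dusp4, Dusp5, Dusp6, Dusp8, Dusp10 and Dusp16), against 4.38%. At the times with no call, 2 members had an unadjusted limma p under 0.05 against auranofin at 2 h, beside 2708 of the 21506 genes. Against BCNU 4 members had one at each of 2 h and 4 h, beside 2784 and 3792 genes. The widest gaps were Dusp5 at 24 h, 1.70 above auranofin (adjusted p = 3.79e-06) and 2.66 above BCNU (adjusted p = 5.57e-09), and Dusp1 at 8 h, 1.58 above auranofin (adjusted p = 3.44e-07). The count against auranofin at 4 h went from 1 to 3 as single arrays were left out, and Dusp10 lost its call there without auranofin replicate 1 (adjusted p = 0.0641) or co-treated replicate 1 (adjusted p = 0.145).

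Auranofin and BCNU differed from each other in 4 members. Dusp1 was lower under auranofin than under BCNU at 4 h, with a log2 difference of -0.78 ± 0.14 (adjusted p = 0.0198), and at 8 h (-0.79 ± 0.14, adjusted p = 0.0101), and Dusp16 at 4 h (-0.58 ± 0.12, adjusted p = 0.0373). The lower calls were 2 members at 4 h and 1 at 8 h, against 0.102% and 0.232% of all genes. At 24 h Dusp5 was higher under auranofin, by 0.95 ± 0.20 (adjusted p = 0.00815), and Spry4 lower (-1.06 ± 0.17, adjusted p = 0.00116), against 1.34% of all genes higher and 0.818% lower. At 2 h no member was called, against 0.0186% of all genes either way. An unadjusted limma p under 0.05 was found for 3 members and for 1266 of the 21506 genes. Only the Spry4 difference was called with any 1 array left out. Dusp5 lost its call without any of the 4 arrays (adjusted p between 0.0516 and 0.0827), Dusp16 likewise (0.0515 to 0.251), and Dusp1 without either auranofin array or BCNU replicate 1 (0.075 to 0.192 at 4 h, 0.0744 to 0.174 at 8 h).

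Untreated cells and later controls did not differ detectably in these genes. No member was called at 4, 8 or 24 h against 0 h, and none of all genes was called by limma (0.00%), although 1013, 917 and 955 genes had an unadjusted p under 0.05, among them Dusp1 at 8 h. The co-treatment effect was compared between neighbouring times in the same fit. Dusp5 rose further from 8 h to 24 h, by 1.24 ± 0.28 (adjusted p = 0.0157), against 1.37% of all genes called higher. It lost this call without the 8 h control replicate 1 (adjusted p = 0.0771), the 8 h co-treated replicate 1 (0.0552), the 24 h control replicate 2 (0.0509) or the 24 h co-treated replicate 2 (0.0924). Dusp10 and Dusp16 had differences below 0 over that interval, -0.88 ± 0.24 (adjusted p = 0.059) and -0.50 ± 0.17 (adjusted p = 0.138), that were not called, and the Dusp10 difference was called after cyclic loess, with an intensity trend and with genes above the median level only (adjusted p = 0.0469, 0.018 and 0.0256). The Dusp4 difference was 0.55 ± 0.17 (adjusted p = 0.115), which was called without 24 h control replicate 1 (0.71, adjusted p = 0.0443).

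Ordered by group mean, AF+BCNU at 24 h was the highest of the 16 groups for Dusp4, Dusp5, Dusp6, Dusp8 and Spry2, and AF+BCNU at 8 h for Dusp1, Dusp10 and Dusp16. Dusp14 was highest in 24 h controls. Most neighbours in these orders overlapped, between 9 (Dusp16) and 13 (Dusp8 and Dusp14) of the 15 neighbouring pairs, and the highest group overlapped the next for Dusp8, Dusp14 and Spry4, so much of each order is not resolved. The distance between the lowest and the highest array of a gene ran from 0.85 (Dusp14) and 0.88 (Spry2) to 3.36 (Dusp5) on the log2 scale.

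The genes whose 16 group means followed a member's most closely were read out by Pearson correlation among the genes above the median level without a predicted or locus-style symbol (10157, and 10158 for Dusp8), a description over groups that share the same drugs. Dusp5 was most like Lgals3 (galectin-3, r = 0.94), Klf6 (a zinc finger transcription factor, 0.94) and Hspd1 (a mitochondrial chaperonin, 0.93). Dusp6 was also most like Lgals3 (0.95) and Klf6 (0.93), followed by Trim29 (0.93). Dusp1 was closest to Stx5a (a Golgi syntaxin, 0.92), Pcf11 (a factor of messenger RNA 3′ end formation, 0.92) and Id3 (an inhibitor of helix-loop-helix factors, 0.91). Dusp8 was most like Dusp4 itself (0.93), then Rpl41 (a ribosomal protein, 0.92) and Snora74a (0.91), and Dusp4 was most like Dpep2, Vaultrc5 and Snora74a (0.93, 0.93 and 0.92). Dusp10 was closest to Yju2 (a splicing factor), Klf11 and Anapc16 (0.92, 0.92 and 0.91), and Dusp16 to Nup54 (a nuclear pore protein), Uap1 and Ndel1 (0.94, 0.94 and 0.93). Spry4 had the weakest best matches, Ptp4a1 (a tyrosine phosphatase), Tmem70 and Usp38, each at 0.84.

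Genes known to respond to ERK signalling were called at 2 h of co-treatment, when no member was, though Dusp1 came near (limma adjusted p = 0.0609). Of 14 measured, 7, 9, 12 and 11 were called higher at 2, 4, 8 and 24 h, with 1 lower, Ccnd1 (cyclin D1), at 24 h (-1.19 ± 0.21, adjusted p = 0.00038). Of all genes 0.632%, 2.53%, 5.72% and 4.88% were called higher at these times, and 4.25% lower at 24 h. The median log2 change of the 14 was 0.59, 1.03, 1.71 and 1.66. The transcription factor genes Egr1 and Fos led at 2 h, with log2 changes of 3.99 ± 0.18 (adjusted p = 6.15e-11) and 3.24 ± 0.16 (adjusted p = 8.66e-11). At 8 h the log2 changes were 4.55 for Egr1, 4.01 for Fos, 3.58 for Egr2 and 3.45 for Ier2, an immediate early gene. Jun, the AP-1 subunit downstream of JNK, rose by 1.29, 1.83, 2.18 and 2.49 (each ± 0.16) at the 4 times. Fosl1 and Etv1 were not analysed here. At 2 h of co-treatment Dusp1 was called after cyclic loess, with an intensity trend and with genes above the median level only. Dusp10 was called there against the 4 h controls. All other 2 h changes here are against untreated 0 h arrays, for want of a 2 h control, so the order of these calls is not settled.

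Other members of the same families did not move as a block. The member list and the lists of these relatives were chosen with earlier results of these data known. Their counts therefore cannot test whether the listed members differ from their relatives, because that choice could itself set the lists apart. Of 8 other MAP kinase phosphatases, Sprouty and Spred genes, Spred2, a membrane-bound inhibitor of the Ras to ERK step, rose by 1.08 ± 0.11 at 8 h (adjusted p = 8.33e-07) and 1.04 ± 0.11 at 24 h (adjusted p = 1.16e-06). At 24 h Spred1 (0.64) and the ERK phosphatase Dusp9 (0.84) were also called higher. Spry1 fell at 2, 4 and 24 h, with log2 changes of -0.80 ± 0.16 (adjusted p = 0.0102), -0.68 ± 0.16 (adjusted p = 0.0107) and -0.93 ± 0.16 (adjusted p = 0.000448), and Dusp7, a cytoplasmic ERK phosphatase related to Dusp6, fell at 4 h (-0.51) and 8 h (-0.54). This list thus counted 0, 0, 1 and 3 higher and 1, 2, 1 and 1 lower. Of all genes 0.632%, 2.53%, 5.72% and 4.88% were called higher and 0.860%, 3.31%, 5.58% and 4.25% lower. None of 13 other dual-specificity phosphatases was called in any of the 12 comparisons of a treatment with control, including the 4 with co-treatment. At these shares of all genes, no call among 13 genes does not show that they were unmoved.

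Upstream of the brakes, the receptors called were all lower and the ligands called went both ways. Of 12 receptor tyrosine kinases none was called higher under both drugs and 1, 6, 5 and 5 were called lower at 2, 4, 8 and 24 h, where 0.860%, 3.31%, 5.58% and 4.25% of all genes were called lower. Pdgfra, the platelet-derived growth factor receptor alpha, fell at all 4 times, with a log2 change of -2.53 ± 0.13 at 24 h (adjusted p = 1.62e-11), beside Pdgfrb at -2.00, Egfr at -1.23 and Fgfr1 at -0.85. Insr, the insulin receptor, was lower at 4 h (-0.59) and 8 h (-0.84). Among 17 growth factor ligands, Hbegf, a ligand of the epidermal growth factor receptor, rose by 1.00 ± 0.25 at 8 h (adjusted p = 0.00846) and 1.40 ± 0.25 at 24 h (adjusted p = 0.000567), and Ereg, another such ligand, by 1.12 at 24 h. Fgf7, a fibroblast growth factor made by stromal cells, fell at all 4 times, with a log2 change of -1.26 ± 0.15 at 24 h (adjusted p = 3.65e-06). The ligand list counted 0, 0, 3 and 2 higher and 1, 1, 5 and 3 lower. Of all genes 0.632%, 2.53%, 5.72% and 4.88% were called higher at the 4 times.

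Among the kinases and adaptors between receptor and MAP kinase, the genes called under both drugs were lower, except Map2k3 at 24 h. Of all genes, 0.860%, 3.31%, 5.58% and 4.25% were called lower at 2, 4, 8 and 24 h, and 4.88% higher at 24 h. Of 7 Ras to ERK core genes measured, Ksr1, a scaffold for the ERK cascade, fell at 4, 8 and 24 h (-0.93, -0.92 and -0.73) and no other measured gene of this list was called. Of 11 adaptors and Ras regulators, Nf1 (-0.55) and Cbl (-0.54) were lower at 4 h and Cbl (-0.86) and Gab1 (-0.52) at 8 h. Of 15 JNK and p38 pathway kinases 1, 3 and 4 were lower at 2, 4 and 8 h, with Map3k1, an upstream activator of JNK, at -0.59, -0.94 and -0.97 and Mapk14, which encodes p38 alpha, at -0.59 and -0.79 at the later 2 of these times. Map2k3, which activates p38, was the single call at 24 h and was higher (0.62 ± 0.12, adjusted p = 0.000856).

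**Figure D5:**
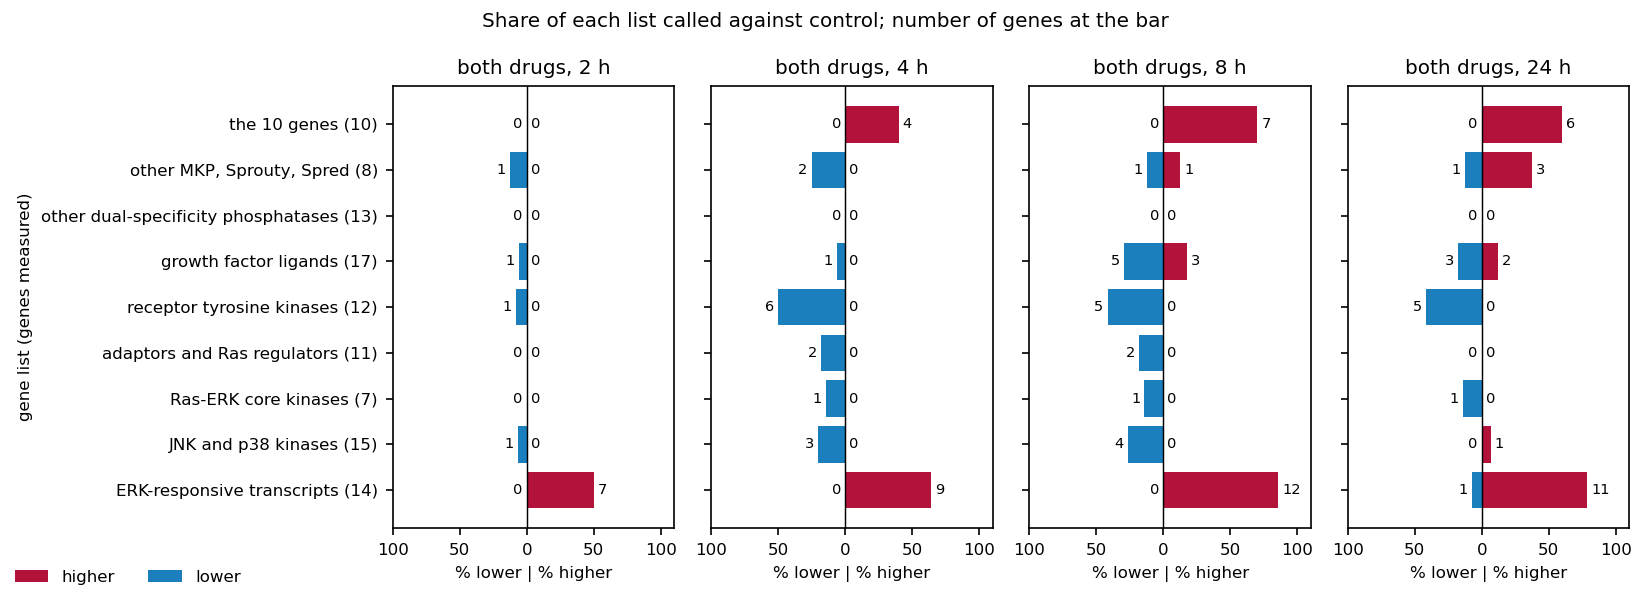
Share of each gene list called higher (right) or lower (left), in percent of the genes measured, at 2, 4, 8 and 24 h of co-treatment, with the number of genes at each bar and the number measured in brackets. ERK-responsive transcripts reach 12 of 14 higher at 8 h, the 10 members 7, while receptor tyrosine kinases show calls on the lower side alone.

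Fibroblast markers moved with these late results. The mean log2 level of 8 preadipocyte and fibroblast markers was 9.26 to 9.35 in 8 h controls and 8.67 to 8.75 on co-treated arrays at 8 h, and 9.22 to 9.32 in 24 h controls and 6.99 on both co-treated arrays at 24 h. Called lower were 1, 2, 5 and 8 of these 8 markers at 2, 4, 8 and 24 h, with a median log2 change of -2.41 at 24 h. The shares of all genes called lower were 0.860%, 3.31%, 5.58% and 4.25%. Pdgfra is on this list as well as among the receptors. The mean of the 10 adipocyte markers was 11.02 to 11.17 in 24 h controls and 10.88 to 10.91 on the co-treated arrays, and the only call among them was 1 lower, at 8 h. Of 5 macrophage markers 1, 2, 2 and 2 were called higher at the 4 times, where 0.632%, 2.53%, 5.72% and 4.88% of all genes were. Cd68 and Itgam reached 7.58 and 4.13 on their highest arrays, whereas Csf1r reached at most 3.03. Of 4 endothelial markers 0, 1, 1 and 2 were called higher, and Pecam1 reached at most 7.13, Cdh5 2.78 and Tek 2.58. The part of these marker changes in the results for the phosphatases and Sprouty genes was not tested.

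Of all genes called at 8 h of co-treatment, 50.6% were higher with the values as deposited, 51.5% after cyclic loess and 38.5% after each array was centred on its median. Among genes above the median level only, the share was 39.6%. The 7 members called at 8 h were called higher after both of these scalings.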

How the data were processed

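The deposited table held log2 expression values of 25293 probe sets on 32 arrays, which the authors made with RMA (background correction, quantile normalization and summary) in the oligo package. The authors had removed transcripts without an approved symbol. Single values lay between 0.543 and 13.8 and the medians of the arrays between 3.55 and 3.69. For the genome build of the authors' annotation, none is given in the sources used here. Of the probe sets, the 685 annotated with more than 1 symbol and the 2578 with no symbol were not used, and the other 22030 were collapsed by the median per gene to 21506 genes, 465 of them with more than 1 probe set.

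Group means over the 16 groups were fitted with limma 3.58.1 in R 4.3.3 (16 residual and 3.50 prior degrees of freedom, prior SD 0.149), with 40 two-sided contrasts, each adjusted by Benjamini-Hochberg over all genes. As in the study's methods, a gene was called at an adjusted p below 0.05 together with an absolute log2 change above 0.5. Errors written with ± are SEs of the log2 change with 2 arrays a group. The interaction is the co-treatment change less the summed changes of the single drugs. The fit was tested on simulated data.

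The members, gene lists and motifs were chosen with earlier results of these data known. All 10 members are described. From each pathway list up to 4 called genes with the largest change in the contrast were named, as were the 3 genes most like each member with a call and Jun. Alternatives were array centring, cyclic loess, a level filter, other probe set summaries, an intensity trend, a replicate block, the 4 h control for 2 h, fits of the groups compared alone and leaving out each array.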

Additional observations from a re-analysis of the deposited data

Results flagged for a closer look

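The effect of both drugs on Dusp5 differed between 8 h and 24 h by the test of the difference itself, with the log2 change 1.24 ± 0.28 larger at 24 h (limma adjusted p = 0.0157). Both co-treated arrays lay above both controls at each of these times, as they did at 24 h for 26.7% of all genes. The 8 h and 24 h arrays were compared each with their own controls, and this call was lost without any of 4 arrays and in a fit of the 8 arrays alone (adjusted p = 0.0667).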

How the results depend on the processing

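No member value changed direction while called under any alternative. Over the 40 contrasts 69 member values were called, and 44 of them were called whichever single array was left out. Centring the arrays retained 65 of the 69, cyclic loess and an intensity trend 68 each, and fits of the compared groups alone, with 4 to 8 arrays, 29. Dusp5 at 24 h of co-treatment had adjusted p between 1.06e-11 and 0.00315 over all alternatives. Differences between replicates correlated between groups at -0.11 to 0.12 (median 0.02, 3 of 120 pairs over 0.1), so no large effect shared by a replicate number was seen. This cannot show whether arrays with the same replicate number were matched, which the labels do not state. With the replicate block 68 of the 69 values were called, and the exception was Spry4 under BCNU at 4 h.

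Fits of the compared groups alone gave 0 calls for auranofin at 8 h and 24 h (2 and 1 with all groups), BCNU at 4 h and 8 h (3 and 2), both drugs at 4 h (4), both drugs against auranofin at 4 h (2), auranofin against BCNU at 4, 8 and 24 h (2, 1 and 2) and both drugs between 8 h and 24 h (1). They gave 5 instead of 7 for both drugs at 8 h and 5 instead of 6 at 24 h, 1 instead of 4 interactions at 8 h and 3 instead of 5 at 24 h, 4 instead of 9 for both drugs against auranofin at 8 h and 5 instead of 8 at 24 h, and 1 instead of 3 for both drugs against BCNU at 8 h. The number of genes called over the whole table also fell, from 1963 to 858 for both drugs at 24 h. Centring left 2 of 4 interactions at 8 h.

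Other alternatives added calls. The filter on genes above the median level gave 1 instead of 0 for BCNU at 2 h (Spry4), both drugs at 2 h (Dusp1), the interaction at 4 h (Dusp1) and BCNU between 8 h and 24 h (Dusp16), 2 instead of 1 for auranofin against BCNU at 8 h and 3 instead of 1 for both drugs between 8 h and 24 h. The intensity trend gave 1 instead of 0 for BCNU at 2 h, both drugs at 2 h, the interaction at 2 h (Spry4) and 4 h, both drugs against BCNU at 2 h and BCNU between 8 h and 24 h, and 2 instead of 1 for auranofin against BCNU at 8 h and both drugs between 8 h and 24 h. Several values added by this trend were below 0. Spry4 was at -1.02 for the interaction at 2 h and -0.57 for both drugs against BCNU at 2 h. Dusp16 was at -0.64 for BCNU between 8 h and 24 h. Spry4 for auranofin against BCNU at 8 h (-0.63) and Dusp10 for both drugs between 8 h and 24 h (-0.88) were also below 0. Cyclic loess gave 1 instead of 0 for both drugs at 2 h and the interaction at 4 h, and 2 instead of 1 for auranofin against BCNU at 8 h and both drugs between 8 h and 24 h. The 4 h control in place of the 0 h arrays gave 1 instead of 0 for BCNU at 2 h (Spry4) and both drugs at 2 h (Dusp10). The cause of these changes was not tested.

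Leaving out single arrays gave 0 to 1 calls for auranofin at 8 h, 1 to 2 at 24 h, 0 to 2 for BCNU at 4 h and at 8 h, 2 to 4 interactions at 8 h, 1 to 3 for both drugs against auranofin at 4 h, and 0 to 2 for both drugs between 8 h and 24 h. Auranofin against BCNU gave 0 to 1 at 4 h, 0 to 2 at 8 h and 1 at 24 h. For both drugs against control the range was 3 to 4 at 4 h, 6 to 7 at 8 h and 6 to 7 at 24 h. With 2 arrays a group, the dimmer Dusp6 probe set under background and Dusp8 near it, small changes of these genes were not detectable.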
